A study of Mus musculus with 564 samples.

Results

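The regulatory regions of 37 interferon-stimulated antiviral genes were described in mouse bone marrow-derived macrophages (BMDMs), primary macrophages differentiated from marrow progenitors. The readout was ChIP-seq of H3K27ac, the acetylation of histone H3 at lysine 27 that accompanies active promoters and enhancers. Each region is a cis-regulatory element (CRE), an interval around ATAC-seq peaks that the authors used for counting. The members were the 92 of 59190 CREs whose centre lay within 10 kb of a RefSeq transcription start of 1 of the 37 genes, with 1 to 5 CREs per gene. Each gene was represented by its nearest CRE. The 37 genes had 36 distinct nearest CREs, because Parp9 and Dtx3l share a bidirectional promoter, and 35 of the 36 overlapped a transcription start. The nearest CRE of Ifi44 lay 7443 bp from its start, held values of 0 to 12 in the DMSO libraries and was too low to be tested in the DMSO time courses.

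All cells were wild type BMDMs from C57/BL6 mice that were pre-treated for 1 h with DMSO as the vehicle or with a clinical kinase inhibitor (CKI), of which 58 were used. They were then left unstimulated (UT) or received the TLR4 ligand lipopolysaccharide (LPS) or interleukin 4 (IL-4), each at 10 ng/mL, for 30 min, 1 h, 2 h or 4 h. The labels of UT samples differ on their time. The titles give the start of the course and the treatment label gives 4 h without stimulus, so the time of harvest is uncertain. Of 564 libraries, 18 were DMSO libraries in 9 groups of 2, and 546 were CKI libraries, with 1 library in 474 groups of compound, stimulus and time and 2 libraries in 36. The labels do not say whether the libraries of a group came from separate cultures, so p-values measure the spread between these libraries, which may be technical. Each CKI was used at its own concentration, chosen from its affinity for an intended target, so the values of CKIs are given side by side and their potency is not compared.

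Type I interferon made by a cell that has sensed a microbe binds a receptor on the same and neighbouring cells, where the kinases JAK1 and TYK2 activate transcription factors. With IRF9 among them, these factors bind the interferon-stimulated response element (ISRE) in the promoters of many genes, which block the entry, transcription, translation or release of viruses. In macrophages LPS reaches this pathway through TLR4, the adaptor TICAM1 (TRIF), the kinase TBK1 and the transcription factor IRF3, which together switch on the interferon beta gene. IL-4 signals through JAK1, JAK3 and STAT6, and its known target genes are largely separate.

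The motif that textbooks give for interferon-stimulated genes is printed here from the promoter windows that hold it. The rise described next was measured over whole CREs, which are longer than these windows. RefSeq promoter windows (GRCm38.p6, 250 bases before to 50 after the start) were found for 26 members. The ISRE core, searched on both strands, occurred in 13 of them (50.0%) and in 4.0% of 27025 genes. The bases in capitals mark the match, and each sequence is written on the strand on which the core reads 5′ to 3′. In order, the lines belong to the minus strand at chr19:34640775-34640804, the minus strand at chr19:34583363-34583392, the minus strand at chr5:120907520-120907549, the minus strand at chr5:120777715-120777744, the minus strand at chr2:62646206-62646233, the plus strand at chr4:40239804-40239833, the minus strand at chr17:78882535-78882564, the minus strand at chr4:156200871-156200900, the plus strand at chr12:26456553-26456582, the minus strand at chr8:71537577-71537606 and the minus strand at chr2:180589428-180589456.
Ifit1: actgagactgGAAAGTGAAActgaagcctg
Ifit3: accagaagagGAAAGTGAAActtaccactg
Oas1a: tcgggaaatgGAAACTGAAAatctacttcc
Oas3: gcagggaggaGAAAACGAAAgtgaagggag
Ifih1: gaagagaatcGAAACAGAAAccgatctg
Ddx58: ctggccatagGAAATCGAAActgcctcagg
Eif2ak2: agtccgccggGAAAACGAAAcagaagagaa
Isg15: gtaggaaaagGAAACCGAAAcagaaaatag
Rsad2: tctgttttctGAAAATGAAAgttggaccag
Bst2: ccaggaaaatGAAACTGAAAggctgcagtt
Ogfr: cgcggaaagGAAAGTGAAAgaggaggaag

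For genes with several matches 1 is printed, and the windows of Ifit3b and Trim30a also held matches. A match of Ifit3b, on the minus strand at chr19:34607759-34607788, has the same 30 letters as that printed for Ifit3. Reads from these near-identical copies, and from the Oas1 cluster, may match several positions, and how they were placed was not examined. The split between Ifit3 and Ifit3b is therefore uncertain. The GAS motif, another element of interferon-responsive promoters, occurred in 6 of 26 windows (23.1%, Ifit2, Oas1a, Eif2ak2, Isg20, Bst2 and Ifi35) against 9.6% of all genes, and in Bst2 it overlapped an ISRE match other than the printed one. The kappaB motif was found in 0 of 26 windows against 1.9% of all genes. A match describes the letters only, and a window without a match says nothing about whether a factor binds there.

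Several properties of the libraries bear on the values. An estimated 2322160 to 5416700 reads fell into CREs in the DMSO libraries, and 162676 to 6580610 in the CKI libraries. Library contrast, the ratio of the median in the top 10% of CREs to that in the bottom 10%, was 53.0 to 134 in DMSO libraries and 3.34 to 67.2 in CKI libraries, with medians of 75.1 and 17.6. In the deposited table the CKIs formed 6 stretches of columns that share no compound, called runs here and used only as a technical batch. DMSO lay outside all of them. Of 241 CKI libraries labelled LPS, 16 resembled DMSO cells at another LPS time more than at their own. They include 5 run-2 libraries labelled 1 h (MK2206, Lenvatinib, Talmapimod, TG100115 and XL413), which correlated with DMSO at 2 h of LPS with r of 0.915 to 0.953 and with 1 h with r of 0.79 to 0.822. The macrophage gene Adgre1 had values of 796 and 794 in the UT libraries.

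In DMSO-treated cells LPS raised H3K27ac at every tested nearest CRE of these genes, with the largest difference at 2 h or 4 h. The median difference from UT was -0.03 on the log2 scale at 30 min, 1.01 at 1 h, 1.92 at 2 h and 1.82 at 4 h, whereas the median of all tested CREs stayed between 0.02 and 0.09. All 35 tested nearest CREs passed the test (limma F-test over the 4 times, adjusted p below 0.01, with at least a 2-fold difference at some time) and were higher at their largest difference. Over all member CREs 70 of 87 tested passed, 67 higher and 3 lower, against 53.5% of all 50697 tested CREs, 29.0% higher and 24.6% lower. The largest difference fell at 2 h for 28 genes and at 4 h for 8 genes (Bst2, Dhx58, Mx1, Oas3, Rsad2, Sp100, Usp18 and Zbp1), and the difference between 2 h and 4 h was not tested. In ChIP-seq of bulk cells, more cells that carry the mark and more mark per cell cannot be told apart.

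The genes differed in the first sampled time at which they passed the 2-fold limit. At 30 min only Ifih1 had risen at least 2-fold. Ddx58, Isg15, Isg20, Ogfr and Parp14 were significantly higher by less, 7 genes (Cmpk2, Ifit3b, Mx1, Mx2, Sp100, Trim25 and Zbp1) were significantly lower by less than 2-fold, and Ifit2 was lower by more than 2-fold. The other 22 genes did not pass at 30 min. Without regard to size 13 of 87 member CREs were higher and 13 lower at 30 min, fewer than the 22.2% and 19.2% of all CREs. At 1 h, 19 genes had risen at least 2-fold and 17 significantly by less. Some lay close to the limit on either side, such as Rtp4 with 1.01 and Ifi35 with 0.99. At 2 h all 36 tested genes were at least 2-fold higher. At 4 h this held for 35, and Trim25 had a difference of 0.92. Counted over all member CREs, 5 were higher and 4 lower at 30 min (16.3% and 13.1% of all CREs), 41 and 0 at 1 h (19.6% and 15.1%), 62 and 1 at 2 h (21.3% and 19.7%) and 64 and 0 at 4 h (20.5% and 15.8%).

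**Figure D1:**
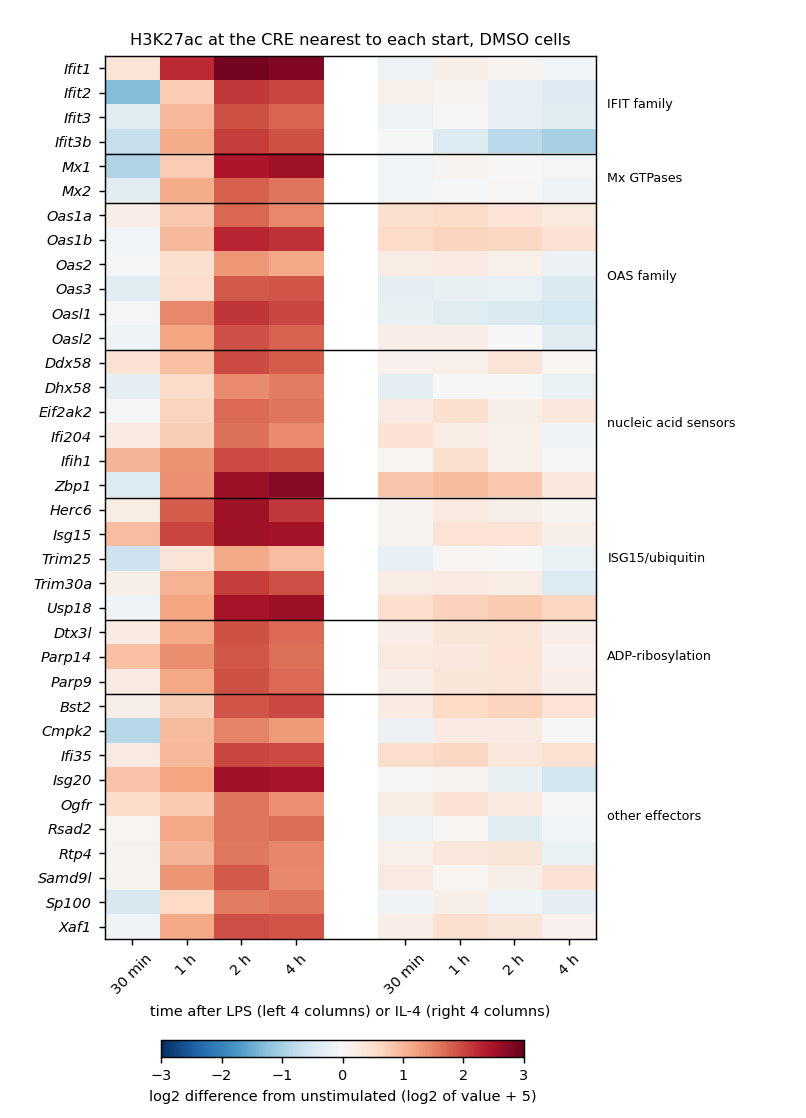
H3K27ac at the nearest CRE of each member gene after LPS and after IL-4 in DMSO-treated cells, as the log2 difference from UT (colour) at each time (columns), with genes ordered by role. After LPS the columns of 2 h and 4 h are raised throughout, with a median of 1.92 and 1.82, while the 30 min column is mixed and the IL-4 columns stay near 0.

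The test of 4 h against 30 min, which compares the late with the early time directly, gave 62 of 87 member CREs higher at 4 h, against 14.0% of all CREs. By gene it called 33 of 36 nearest CREs. The 3 others were Ifih1, Ogfr and Parp14, with differences of 0.89, 0.82 and 0.75, all of which were already higher at 30 min.

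The IFIT proteins bind viral RNA and block its translation, and Ifit1 had the largest rise among the nearest CREs. At its CRE (chr19:34640043-34641604, mm10) the values were 109 and 84 in UT, 107 and 148 at 30 min, 487 and 460 at 1 h, 751 and 712 at 2 h and 738 and 635 at 4 h. All libraries from 1 h on lay above all earlier ones, with a log2 difference of 2.87 ± 0.15 (SE, n = 2 libraries per group, adjusted p = 5.04e-18) at 2 h. Ifit2 began with a fall: its CRE (chr19:34549770-34551817) had 92 and 77 in UT, 36 and 27 at 30 min, 127 and 166 at 1 h and 406 and 361 at 2 h. The 30 min libraries lay below both UT libraries and fell by 1.30 ± 0.19 on the log2 scale (adjusted p = 3.70e-07), and between -1.48 and -1.02 under 17 alternative settings. Ifit3b went through the same order, from 331 and 368 in UT to 150 and 306 at 30 min and 1503 and 1469 at 2 h, and its 30 min replicates differed 2-fold from each other. Without 1 of them its 30 min difference was -0.19, with an adjusted p of 0.242.

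Mx1 and Mx2 are dynamin-like GTPases that trap viral nucleocapsids, and C57BL/6 mice are known to carry a defective Mx1 protein. The RefSeq transcripts used for Mx1 and Mx2 are non-coding. The Mx1 CRE (chr16:97460622-97464623) had 326 and 277 in UT, 147 and 172 at 30 min, 572 and 464 at 1 h, 1677 and 1589 at 2 h and 1950 and 1636 at 4 h. The 30 min libraries were the lowest of the course, a fall by 0.90 ± 0.12 on the log2 scale (adjusted p = 1.13e-07), and the rise at 4 h was 2.55 (adjusted p = 4.24e-19). Mx2 followed with 453 and 442 in UT, 394 and 321 at 30 min and 1495 and 1616 at 2 h.

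OAS enzymes make oligoadenylates that activate RNase L. Whether each gene of the family encodes such an enzyme was not examined. Oasl1 and Oasl2 are named OAS-like, and the RefSeq transcript used for Oas1b is non-coding. The 6 genes of the family had a median of -0.07 at 30 min, 0.89 at 1 h, 1.89 at 2 h and 1.82 at 4 h. Oas1b led them: its CRE (chr5:120811736-120814291) had 161 and 169 in UT, 157 and 153 at 30 min, 360 and 298 at 1 h, 798 and 841 at 2 h and 840 and 675 at 4 h. Its difference at 2 h was 2.28 ± 0.14 (adjusted p = 1.42e-16). Oas1a (chr5:120906094-120908384) had 235 and 238 in UT, 213 and 345 at 30 min, 398 and 435 at 1 h and 790 and 786 at 2 h, a rise of 1.72. Oas2 had the smallest peak of the family, 1.31.

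Among the sensors of foreign nucleic acid, Ifih1 (MDA5, a receptor of long double-stranded RNA) was the earliest. Its CRE (chr2:62644826-62647015) had 245 and 261 in UT, 508 and 520 at 30 min, 645 and 652 at 1 h, 1017 and 977 at 2 h and 935 and 980 at 4 h. Both 30 min libraries lay well above UT, with a difference of 1.01 ± 0.10 (adjusted p = 4.40e-10) and 0.96 to 1.05 under the 17 alternatives. Zbp1, a sensor of Z-form nucleic acid that triggers necroptosis, had the largest rise of the group at 4 h, 2.72 ± 0.13 (adjusted p = 2.53e-19). Its CRE (chr2:173216907-173219853) had 265 and 211 in UT, 162 and 196 at 30 min, 592 and 642 at 1 h, 1399 and 1440 at 2 h and 1817 and 1391 at 4 h. Ddx58 (RIG-I) reached 1.96 at 2 h, Eif2ak2 (PKR) 1.70, Ifi204 1.65 and Dhx58 (LGP2) 1.52 at 4 h.

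ISG15 is a ubiquitin-like modifier and USP18 removes it from its targets. At the Isg15 CRE (chr4:156199608-156201686) the values were 137 and 123 in UT, 208 and 304 at 30 min, 520 and 545 at 1 h, 770 and 796 at 2 h and 841 and 686 at 4 h. Every stimulated library lay above UT, with 0.93 ± 0.14 at 30 min (adjusted p = 1.08e-06) and 2.55 at 2 h. Usp18 (chr6:121245060-121247959) had no early rise, with 223 and 206 in UT, 190 and 204 at 30 min, 556 and 436 at 1 h, 1223 and 1217 at 2 h and 1341 and 1309 at 4 h. Its difference of 2.60 ± 0.12 at 4 h (adjusted p = 1.57e-19) was the largest of the group. The ubiquitin ligases ranged from Herc6, the main ISG15 ligase of mice, at 2.55 to Trim25, an activator of RIG-I, at 1.14. Trim25 was also significantly lower at 30 min, with 641 and 656 in UT and 386 and 462 at 30 min, a fall by 0.61 (adjusted p = 2.88e-06).

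**Figure D2:**
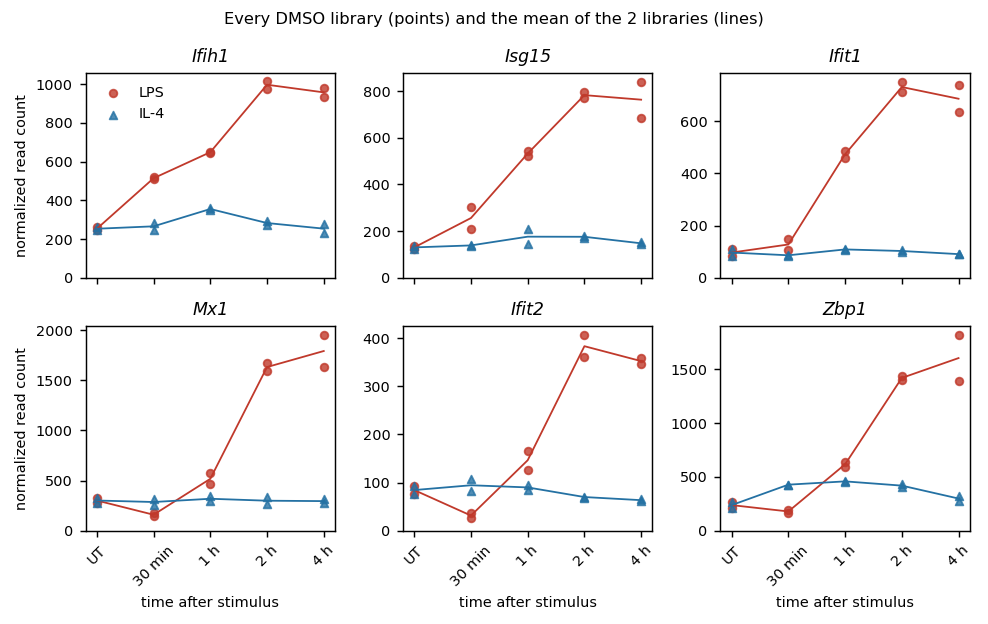
Normalised read counts in each DMSO library (points) at the nearest CREs of Ifih1, Isg15, Ifit1, Mx1, Ifit2 and Zbp1 over time (x axis, hours) after LPS and IL-4. Ifih1 and Isg15 are above UT from 30 min, Ifit1 rises from 1 h, and Mx1, Ifit2 and Zbp1 are lower at 30 min (Mx1 147 and 172 against 326 and 277) before they rise.

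Parp9 and Dtx3l encode a complex of an ADP-ribosyltransferase and a ubiquitin ligase. Their shared CRE (chr16:35936241-35940786) had 481 and 435 in UT, 594 and 499 at 30 min, 1004 and 1051 at 1 h, 1661 and 1835 at 2 h and 1558 and 1449 at 4 h, a rise of 1.92 ± 0.10 at 2 h (adjusted p = 3.00e-18). Parp14 peaked at a similar 1.87, after 0.90 at 30 min.

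Among the other effectors Isg20, an exonuclease that degrades viral RNA, rose most. Its CRE (chr7:78911715-78915930) had 298 and 249 in UT, 475 and 526 at 30 min, 628 and 627 at 1 h, 1619 and 1570 at 2 h and 1630 and 1436 at 4 h. The course has an early step and a late one, with 0.86 at 30 min and 2.53 ± 0.11 at 2 h (adjusted p = 1.08e-20). Rsad2 (viperin), which makes a chain-terminating nucleotide, and Cmpk2, a nucleotide kinase, are neighbouring genes. The Rsad2 CRE (chr12:26455740-26457336) had 95 and 100 in UT, 99 and 105 at 30 min, 240 and 204 at 1 h, 290 and 323 at 2 h and 329 and 311 at 4 h, a rise of 1.66 ± 0.16 at 4 h (adjusted p = 5.29e-11). Ogfr, the opioid growth factor receptor, had 297 and 274 in UT, 371 and 475 at 30 min, 426 and 569 at 1 h, 863 and 883 at 2 h and 803 and 691 at 4 h (chr2:180588188-180590505). Its difference was 0.55 at 30 min and 1.60 ± 0.13 at 2 h (adjusted p = 6.66e-13). The study showed Ogfr as an example of a gene that LPS induces without dependence on interferon.

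The 8 genes whose nearest CRE was significantly lower at 30 min kept that sign when values were quantile normalized. The smallest of these differences was that of Zbp1, -0.35 with an adjusted p of 0.0123, and the largest that of Ifit2, -1.27 with 1.37e-06. All 8 kept their sign under the 17 alternatives, and in the least favourable of them the adjusted p was 0.21 for Zbp1, 0.183 for Mx2 and 0.0329 for Sp100, besides Ifit3b. Of the genes higher at 30 min, Ddx58 and Ogfr had 0.0888 and 0.0388 there.

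Of 56 other member CREs, 52 were tested, 32 rose and 3 fell, against the 29.0% and 24.6% of all CREs. The largest difference lay between Cmpk2 and Rsad2 (chr12:26463731-26465428), 4.96 at 2 h. A CRE 9790 bp upstream of the Mx1 start (chr16:97471872-97473521) reached 4.39 at 2 h, and one 2632 bp upstream of Ifih1 (chr2:62648105-62649669) reached 4.37 at 4 h. The 3 that fell lay upstream of Oas3 (9656 bp, -1.82 at 2 h), Dhx58 (9295 bp, -1.32 at 30 min) and Oasl1 (6348 bp, -1.27 at 30 min).

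The nearest CREs of the 13 genes with an ISRE core in the promoter window had medians of 0.18, 0.96, 1.92 and 1.88 at the 4 times. The 12 CREs of genes whose window held none had -0.08, 1.15, 1.94 and 1.82, and the 10 CREs without a window had -0.10, 0.99, 1.83 and 1.63. The 3 classes overlapped at each time and were not tested against each other.

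After IL-4 no nearest CRE of these genes passed the test with a 2-fold difference from UT. Ifit3b was at the limit and passed under some alternatives, with -1.02 to -1.10, as did Zbp1 without UT replicate 1, with 1.10. Their median difference was 0.15 at 30 min, 0.24 at 1 h, 0.17 at 2 h and -0.03 at 4 h, against 0.09, 0.03, -0.03 and 0.05 over all tested CREs. Of 73 tested member CREs 5 were called, against 24.7% of 47018 CREs (13.6% higher and 11.0% lower), and none was a nearest CRE. By time 0 were higher and 0 lower at 30 min (10.9% and 1.96% of all CREs) and at 1 h (9.46% and 4.61%), 1 and 1 at 2 h (8.69% and 8.66%) and 2 and 3 at 4 h (8.61% and 6.38%). Those that rose lay 9348 bp from the Bst2 start (1.27 at 2 h) and 4873 bp from the Usp18 start (1.29 at 4 h), and those that fell lay upstream of Oasl1 (-1.98 at 4 h), Isg15 (-1.12 at 4 h) and Trim25 (-1.06 at 2 h). The Oasl1 CRE is the one that also fell at 30 min of LPS, and both courses share the UT libraries.

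In the F-test 21 genes had an adjusted p below 0.01 at their nearest CRE without regard to size, 15 of them higher and 6 lower. Over all member CREs 20 of 73 were higher and 14 lower by this rule, near the shares of all CREs, 24.0% and 22.2%. Zbp1 rose most, from 265 and 211 in UT to 428 and 428 at 30 min, 455 and 462 at 1 h, 431 and 407 at 2 h and 324 and 274 at 4 h. Every IL-4 library of Zbp1 lay above both UT libraries, and the difference was 0.94 at 1 h (F-test adjusted p = 3.87e-10). Usp18 reached 0.77, Oas1b 0.67, Bst2 0.66 and Ifi35 0.63. In the other direction Ifit3b went from 331 and 368 in UT to 236 and 292 at 1 h, 185 and 210 at 2 h and 160 and 185 at 4 h, which lay at the 2-fold limit at 4 h (F-test adjusted p = 3.35e-10), and Isg20 reached -0.57, Oasl1 -0.53, Trim30a -0.40, Oasl2 -0.35 and Trim25 -0.25. Of 36 genes, 23 lay above UT at 30 min, 32 at 1 h, 26 at 2 h and 15 at 4 h.

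The direct test of LPS against IL-4 at equal times called 71 of 86 member CREs, 69 of them higher with LPS, against 58.4% of all CREs with 29.2% higher. All 36 tested genes were called at their nearest CRE. Isg20 had the largest difference, 3.04 at 4 h, with 1630 and 1436 after LPS and 167 and 197 after IL-4. At 30 min 24 of 36 genes were lower with LPS than with IL-4, with a median of -0.19. The median was -0.12 over all tested CREs and -0.06 over all tested member CREs. At least 2-fold differences were called for Ifit2, with -1.45, and Zbp1, with -1.24, both lower with LPS (17.1% of all CREs), and for 0 genes in the other direction.

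Of 21 other genes of the pathway, 10 rose and 1 fell after LPS at their nearest CRE (29.0% and 24.6% of all CREs). The interferon beta gene Ifnb1 was ahead of the antiviral genes, with 2.83 at 30 min, 3.67 at 1 h, 3.31 at 2 h and 2.47 at 4 h. Irf7 moved with them, with -0.23, 0.72, 1.82 and 2.10. Socs1, a feedback inhibitor of JAK kinases, reached 2.45, and among the others that rose were Irf1, Stat2, Tbk1, Tyk2, Ikbke and Ticam1. Tlr4, the LPS receptor, fell by 1.09 on the log2 scale. After IL-4 Socs1 (2.25 at 2 h) and Irf7 (1.08 at 1 h) rose and none fell (13.6% and 11.0% of all CREs).

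Against DMSO at the same time of LPS, most CKI libraries had less H3K27ac at these CREs. At 2 h, 409 of 1980 pairs of nearest CRE and CKI were lower and 9 higher, at an adjusted p below 0.05 and a log2 difference over 0.5, where 2.14% of pairs over all CREs were lower and 5.31% higher. At 30 min 189 and 13 of 2088 pairs were called (background 2.17% and 5.74%), at 1 h 297 and 16 of 2052 (1.30% and 5.27%) and at 4 h 286 and 3 of 1980 (1.48% and 4.43%). The median over the nearest CREs was below 0 for 49 of 58, 47 of 57, 50 of 55 and 54 of 55 CKIs at the 4 times. The middle CKI had -0.31, -0.68, -0.65 and -0.52. The other LPS-raised CREs had medians of 0.04, 0.02, -0.14 and -0.08, and all CREs 0.39, 0.37, 0.38 and 0.32. In UT libraries 36 of 2088 pairs were lower and 5 higher (0.269% and 5.16%).

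This difference from DMSO ran with library contrast and with the run. At 2 h the CKIs of run 4, with a median contrast of 31.9, had a median difference of -0.01, and those of run 1, with a contrast of 8.68, had -1.10. At 4 h the values were -0.07 at 41.9 in run 4 and -0.86 at 10.3 in run 1. Since no DMSO library belongs to a run, run and inhibitor cannot be told apart in the comparison with DMSO. The number of called pairs over all member CREs and LPS times fell from 2150 to 553 after quantile normalization, and to 231 when the LPS response of each CKI from its own UT library was compared with that of DMSO. It was 676 without DMSO replicate 1 of each group and 732 without DMSO replicate 2.

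**Figure D3:**
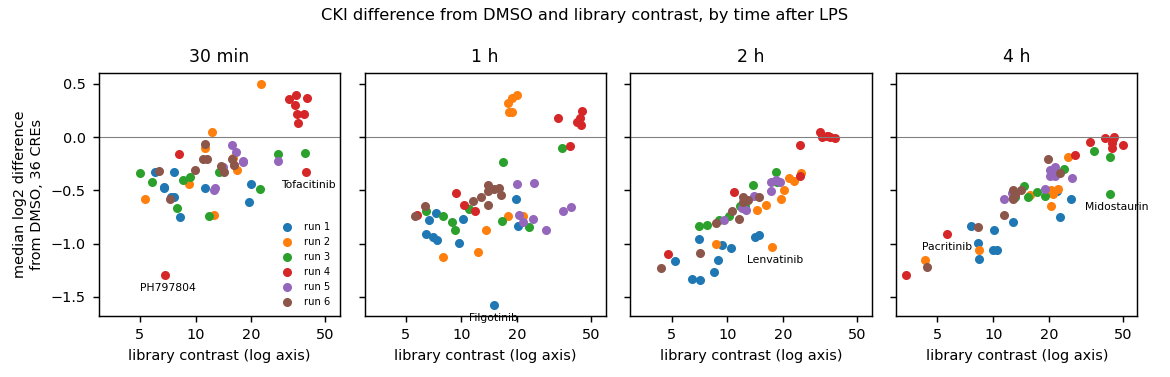
Median log2 difference from DMSO over the nearest CREs (y axis) against library contrast (x axis, log scale) for each CKI at each LPS time, coloured by run. At 2 h and 4 h CKIs with a contrast under 10 lie towards the bottom, and those of run 4, with median contrasts of 31.9 and 41.9, lie near 0.

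Single genes differed in how far the CKI libraries lay from DMSO, a comparison in which run and inhibitor cannot be told apart. At 2 h 9 genes were below DMSO with all 55 CKIs, and the lowest medians were those of Ifi204, Samd9l, Ifih1 and Rtp4, with -1.08, -1.04, -0.96 and -0.90. At 4 h 10 genes were below with all 55, with Ifi204 (-0.86), Ifih1 (-0.83), Usp18 (-0.82) and Rtp4 (-0.73) lowest. The share of all CREs below DMSO with every CKI was not counted. All CKIs at a time were set against the same 2 DMSO libraries, so they do not count as separate observations. Ifi44, whose CRE was almost without signal in DMSO libraries, had medians of 1.46, 1.51, 1.19 and 0.57 at the 4 times. Among the genes with signal Cmpk2 was at or above DMSO at most times, with medians of 0.42, -0.04, 0.07 and 0.29, and Ifit2 had 0.59 at 30 min with 5 of 58 CKIs below DMSO. At that time Ifih1, the early gene, was below DMSO with 57 of 58 CKIs, with a median of -0.83.

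Each CKI was also compared with the other CKIs of its run at the same time, although contrast varied within runs too, for example from 3.37 to 50.2 in run 4 at 4 h. Few nearest CREs were then called: 30 lower and 0 higher at 30 min (0.922% and 0.0865% over all CREs), 15 and 1 at 1 h (0.338% and 0.356%), 27 and 1 at 2 h (0.479% and 0.301%) and 42 and 1 at 4 h (0.484% and 0.789%). PH797804, a p38 inhibitor, accounted for most of them, and without it the counts were 4, 15, 2 and 9 lower and 0, 1, 0 and 0 higher. Its LPS libraries had contrasts of 6.88, 10.3, 4.81 and 3.37 in a run with medians of 31.9 to 41.9, and 12451 CREs were at 0 in its 30 min library. With contrast as a further term its median moved from -0.95 to -0.07 at 2 h and from -1.14 to -0.10 at 4 h, and from -1.33 to -1.01 at 30 min.

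**Figure D4:**
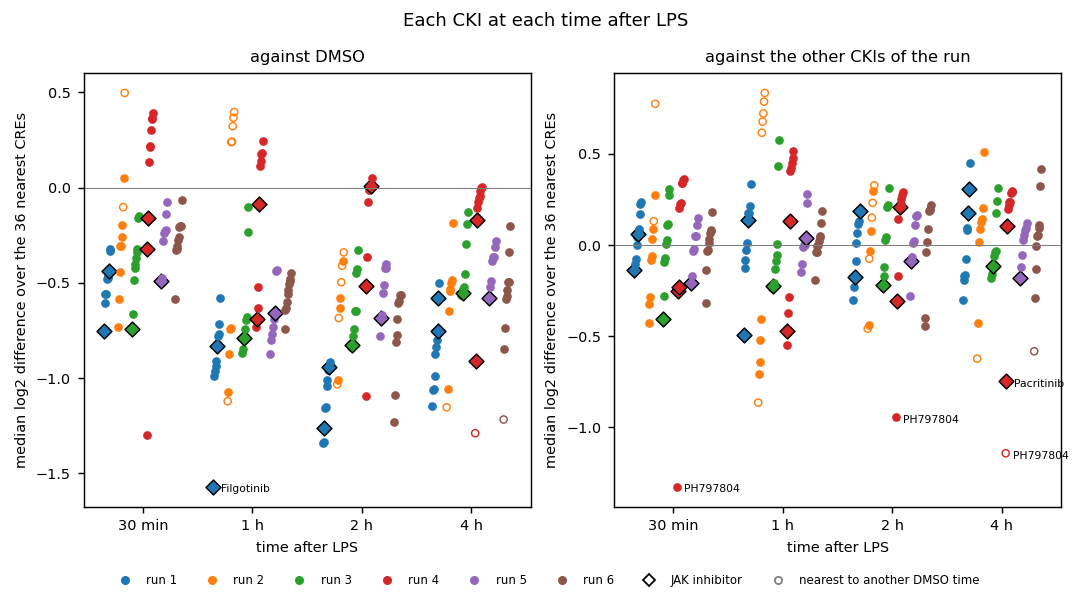
Median log2 difference of the nearest CREs for each CKI at each LPS time, against DMSO (left) and against the other CKIs of its run (right), coloured by run. Diamonds mark JAK inhibitors, and open symbols mark CKIs with a library nearest to another DMSO time. Filgotinib is labelled on the left, and PH797804 and Pacritinib on the right. On the right PH797804 is lowest at 30 min (-1.33), 2 h (-0.95) and 4 h (-1.14), and most other CKIs lie within 0.5 of 0.

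Among the CKIs with the lowest within-run medians, Mubritinib had -0.43 at 30 min, with 32 of 36 CREs below 0 and 1 called lower (0.913% of all CREs), and -0.87 at 1 h with 5 called lower (3.68%). Its 1 h library resembled DMSO at 30 min of LPS. Momelotinib, a JAK inhibitor, had -0.41 at 30 min, and -0.40 with the contrast term. PF04691502 (-0.32 at 30 min, -0.43 at 4 h) and Apitolisib (-0.32 at 30 min) moved to -0.05, -0.15 and -0.11 with that term. At 1 h MK2461 (-0.71), IMD0354 (-0.64) and OSI930 (-0.52), all of run 2, moved to -0.12, 0.06 and -0.05 when contrast was a term and the libraries that resembled another time were left out. VX702, with 2 libraries and a contrast of 5.75, had -0.55 with 10 lower and 1 higher CREs (5.15% and 19.8% of all CREs), and -0.14 under those settings.

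At 2 h Lenvatinib (-0.46), Neratinib (-0.44), OSI930 (-0.44) and Bafetinib (-0.40) followed PH797804. At 4 h Pacritinib (-0.75), Lenvatinib (-0.62) and Losmapimod (-0.58) did. With the contrast term Neratinib, OSI930 and Bafetinib had 0.03, -0.05 and -0.22 at 2 h, while Lenvatinib kept -0.46 with 5 CREs called lower (0.162% of all CREs), and its 2 h library resembled DMSO at 4 h of LPS. At 4 h the term moved Pacritinib, Lenvatinib and Losmapimod to 0.02, 0.05 and -0.08. Midostaurin then had the lowest 4 h median of all CKIs, -0.41. It stayed lowest, at -0.385, when the libraries that resembled another time were also left out.

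The highest medians at 30 min were those of Talmapimod (0.78), Lapatinib (0.36) and VX702 (0.36), and at 1 h those of Lenvatinib (0.84), Talmapimod (0.79) and MK2206 (0.72). The 3 libraries at 1 h and the 30 min library of Talmapimod are among those that resembled a later DMSO time. At 2 h TG100115 (0.33), NMS1286937 (0.31) and MK2461 (0.30) were highest, and at 4 h MK2461 (0.51), Apatinib (0.45) and Pimasertib (0.42), with no nearest CRE called for any of them.

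Filgotinib, a JAK1 inhibitor, had the lowest median against DMSO at 1 h of LPS, -1.57, with 25 of 36 nearest CREs lower against 2.95% of all CREs. It was a single library with a contrast of 14.9 and an estimated 947392 reads in CREs. Ifit1 had a value of 155 with Filgotinib, against 487 and 460 in DMSO and 147 to 313 in the 10 other libraries of the run. Zbp1 had 136 against 592 and 642 in DMSO and 222 to 382 in the run, Oas1b 97 against 360 and 298 and 158 to 260, Mx1 220 against 572 and 464 and 224 to 428, and Parp9 498 against 1004 and 1051 and 519 to 746. The latter 4 lay below every other library of the run, as Ifit1 did not. How many of all CREs were also lowest in this library was not counted. The genes shown here were chosen after their values were seen, so their position in the run is a description only. Ifih1 (381, run 294 to 573), Isg20 (472, run 369 to 578) and Ogfr (355, run 315 to 469) lay inside the range of the run.

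Within the run the median of Filgotinib at 1 h was -0.49 with 32 of 36 CREs below 0, while other LPS-raised CREs had -0.05, and 0 nearest CREs were called (2.28% of all CREs). Without the libraries that resembled another time 5 were called (2.85%), Oas3 (-1.35, adjusted p = 0.0103), Xaf1 (-1.34, adjusted p = 0.0118), Eif2ak2, Sp100 and Ifi35. With contrast as a further term in addition, the median was -0.63, 35 of 36 CREs lay below 0 and 13 were called (4.35%). Xaf1 had -1.49 (adjusted p = 5.70e-04), Oas3 -1.48 (adjusted p = 6.53e-04), Zbp1 -1.29 (adjusted p = 0.00305) and Oasl2 -1.24 (adjusted p = 4.26e-04) in that fit. In the same fit 6 of 21 pathway genes were lower, among them Irf7 (-1.59, adjusted p = 7.82e-04) and Ly96, and Ifnb1 had 0.21 (adjusted p = 0.718). At 30 min, 2 h and 4 h the within-run medians of Filgotinib were -0.14, 0.19 and 0.17.

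The 6 JAK inhibitors of the panel, Filgotinib, BMS911543, Momelotinib, Tofacitinib, Pacritinib and Ruxolitinib, were also set against all other CKIs with the run as a term, with 1 library of each per time. No member CRE was called at any LPS time, against 0% of all CREs at 30 min, 1 h and 4 h and 0.00507% lower at 2 h, and 4, 9, 3 and 2 of 92 had an unadjusted p below 0.05 (4.35%, 9.78%, 3.26% and 2.17%, against 3.26%, 7.35%, 4.99% and 5.98% of all CREs). The medians of the nearest CREs were -0.23, -0.18, -0.08 and -0.08, with 33, 34, 31 and 32 of 36 below 0, and those of all CREs 0.06, -0.10, -0.00 and 0.14. With contrast as a term and without the libraries that resembled another time, the 1 h median was -0.34 with 36 of 36 below 0. Oas3 was then called, with -0.72 ± 0.12 and an adjusted p of 0.00586 (0.00169% of all CREs), where the run term alone had given -0.59 ± 0.20 and an adjusted p of 0.666. Leaving out Filgotinib moved the median at 1 h under the run term alone from -0.18 to -0.10, and leaving out Pacritinib moved it as far. Without Pacritinib the 4 h median was 0.03 with 10 of 36 below 0, so the 4 h value rests on that library.

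**Figure D5:**
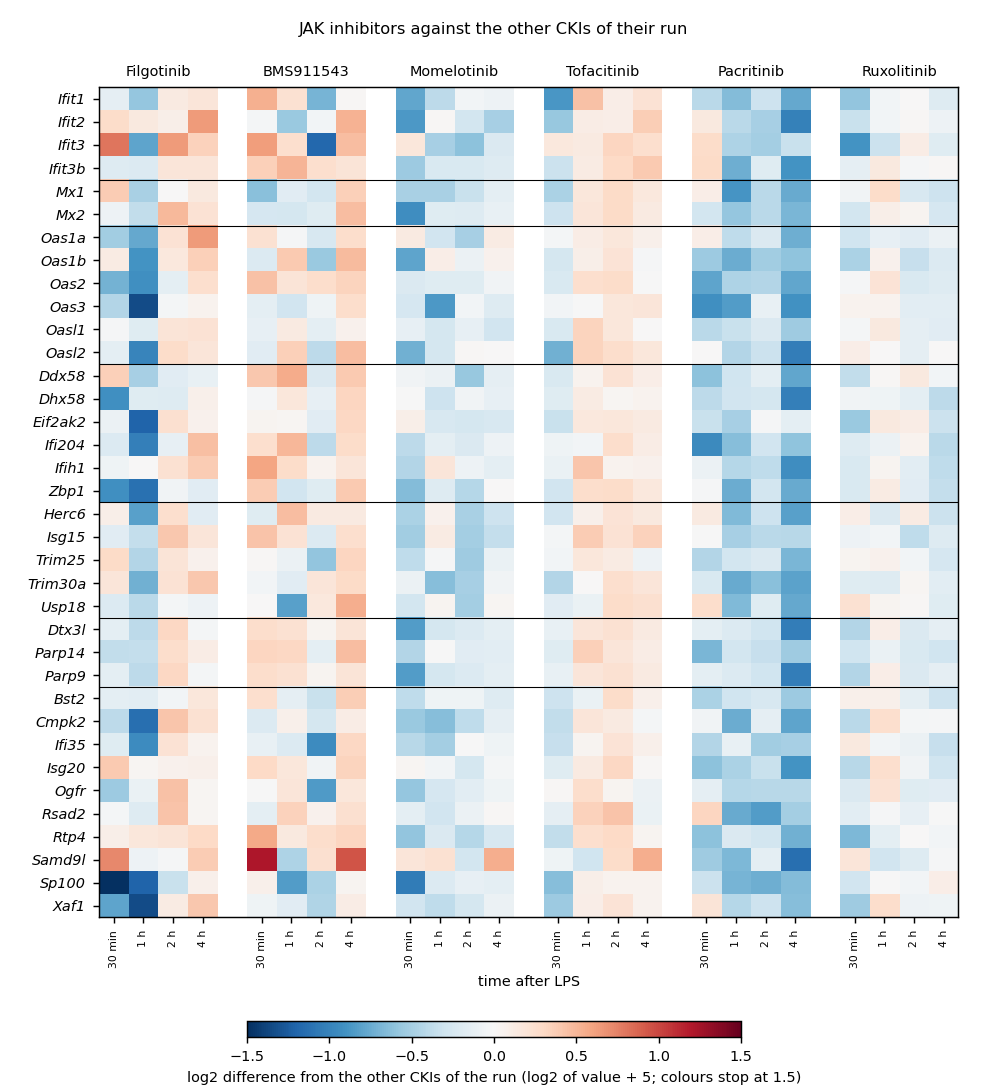
Log2 difference of each JAK inhibitor from the other CKIs of its run at the nearest CRE of each member gene (rows) at the LPS times. Pacritinib at 4 h has the lowest median (-0.75, at a contrast of 5.66) and Filgotinib at 1 h the next (-0.49), and the JAK inhibitors differ in concentration.

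Each JAK inhibitor had its own course within its run, at its own concentration. At 1 h the median was -0.49 for Filgotinib, -0.47 for Pacritinib, -0.23 for Momelotinib, 0.04 for Ruxolitinib, 0.13 for Tofacitinib and 0.14 for BMS911543. With contrast as a term and without the libraries that resembled another time, all 6 were below 0, at -0.63, -0.32, -0.30, -0.07, -0.09 and -0.13. Those of Ruxolitinib, Tofacitinib and BMS911543 were smaller in size than 0.282, the SD between replicates of such a median. How many of the other CKIs lay below 0 under these settings was not counted. BMS911543, a JAK2 inhibitor, then had 5 CREs called at 2 h (7.23% of all CREs), Ifi35 (-0.92, adjusted p = 3.47e-04), Ifit3, Ogfr, Ifit1 and Trim25, at a median of -0.15. Pacritinib at 4 h, with a contrast of 5.66 against a run median of 41.9, had -0.75 in its run and -0.06 under those settings. Without the libraries that resembled another time, but with no contrast term, it had -0.89 with 30 CREs lower and 0 higher (5.15% and 32.6% of all CREs). TG100572 had Samd9l (-1.59, adjusted p = 0.0126) and Ifit3b (-1.11, adjusted p = 0.0240) called within its run at 2 h (3.05% of all CREs).

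After IL-4 few nearest CREs were called between the CKIs of a run. The counts lower and higher were 5 and 1 at 30 min (0.301% and 0.284% of all CREs), 6 and 3 at 1 h (0.212% and 0.675%), 10 and 4 at 2 h (0.415% and 0.315%) and 15 and 7 at 4 h (0.457% and 0.507%). The medians ranged from -0.49 for Tofacitinib to 0.31 for AZD8186 at 30 min, with 33 of 36 CREs below 0 and none called for Tofacitinib. Against DMSO, 141 were lower and 11 higher at 30 min (1.42% and 6.98%), 201 and 14 at 1 h (1.63% and 9.65%), 171 and 7 at 2 h (1.68% and 8.11%) and 103 and 26 at 4 h (1.68% and 8.86%).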

How the data were processed

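H3K27ac ChIP-seq libraries of BMDMs were grouped by the treatment label. The deposited values are a score: the authors trimmed reads to 51 bases, mapped them to mm10 with ShortStack (the submitters' processing notes name Bowtie and SAMtools), counted them around ATAC-seq peaks, scaled them on peaks that did not vary and rounded the normalised read counts to whole numbers. They are not raw counts, so no count model was used. The spacing of a library's values gave the value of 1 read, and from it the reads in CREs, for 550 of 564 libraries. Intervals of counting error were not computed. Some genes of the pathway and marker lists are not reported here.

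limma 3.58.1 (R 4.3.3) was applied to CREs with a mean of at least 10 on log2(value + 5), which understates changes of low CREs, with Benjamini-Hochberg adjustment over all CREs tested. DMSO courses were called at an adjusted p under 0.01 and a log2 difference over 1, CKIs at 0.05 and 0.5 within each CKI and time. The study fitted an impulse model to the DMSO courses. CKIs have mostly 1 library a time. In the comparison within runs their spread came from all compounds. In the comparison with DMSO it came only from the groups with 2 libraries. In both the lone library is assumed to vary like the others. The tests were tried on simulated data, where the fits of a single CKI library recovered few of the 2-fold changes, so a CKI without calls is not shown to act like the others.

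The member genes, gene lists and tests were chosen with earlier results of these data known. All members are reported at their nearest CRE, with every DMSO library for the leading gene of each role group and for Rsad2, Isg15, Mx1, Oas1a, Ifih1 and Ogfr. The genes shown with further libraries and the runs were chosen after their values were seen. For each time the 5 CKIs with the lowest and the 3 with the highest median were named, with all JAK inhibitors. CKIs were ranked within runs after the dependence on contrast was seen. Alternatives were other pseudocounts, filters, normalization, left-out libraries, a replicate block and, added after the data were seen, leaving out libraries nearest to another time and a contrast term. The correlation of replicate deviations over pairs of groups sharing a number was -0.087 to 0.066 (36 pairs), so the numbers were not taken to pair libraries.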

Additional observations from a re-analysis of the deposited data

Results flagged for a closer look

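The responses to LPS and IL-4 in DMSO-treated cells differed by their own test at 71 member CREs. The responses at 4 h and 30 min of LPS differed at 62 member CREs. Among the nearest CREs, 8 were significantly lower at 30 min and higher at 2 h, and their 4 h minus 30 min differences, on the log2 scale, were 3.45 for Mx1, 3.30 for Ifit2, 3.12 for Zbp1, 2.60 for Ifit3b, 2.13 for Cmpk2, 2.08 for Sp100, 1.94 for Mx2 and 1.53 for Trim25. As given above, member CREs were lower at 30 min less often than all CREs. The 30 min libraries that selected these 8 genes also enter the differences listed. The cause of the early fall was not tested.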

How the results depend on the processing

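Over the alternatives, 105 summary counts of the comparisons stayed within 1.5 times the reported count, and 14 moved. The direction of the called changes did not enter this rule. With a pseudocount of 20 or a minimum mean of 50, 3 member CREs were called after IL-4 in place of 5. Quantile normalization gave 553 called pairs of member CRE and CKI after LPS, 500 after IL-4 and 21 in UT libraries, against 2150, 2050 and 259 in the reported comparison, and comparing responses from each compound's own UT library gave 231 pairs for LPS and 54 for IL-4. The contrast term together with leaving out the libraries nearest to another time gave 1 member CRE for the JAK inhibitors in place of 0. Leaving out a DMSO replicate gave 676 to 732 pairs after LPS, 594 to 681 after IL-4 and 49 to 91 in UT libraries, 67 to 71 member CREs changed after LPS, 4 to 7 after IL-4, 69 to 73 between the stimuli and 57 to 62 between 4 h and 30 min, and leaving out each JAK inhibitor gave 0 for the class. The cause of these moves was not tested. The replicate block, fitted although the numbers did not pair the libraries, gave 70, 5, 71 and 62 for the same 4 DMSO comparisons and changed no call of theirs by 1.5 times. Of single genes in DMSO cells, 2691 values kept their call. A change of sign was disregarded where neither fit called the gene. Another 5 became called (Ifit3b after IL-4, -1.02 to -1.10, and Zbp1 after IL-4, 1.10 without UT replicate 1). The call was lost by 4 (Trim25, 0.80 after LPS and 0.78 between stimuli with quantile normalization, Oas1a, 0.90, and Oas2, 0.99). Of CKI medians, 776 moved by less than 0.282, the SD between replicates, and 104 by more. The number of reads and the contrast of a library limit what 1 CKI library can show.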

Other observations

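Of 232 CKI libraries labelled IL-4, 37 were nearest to another group, and of 73 UT libraries 0 were. Among the LPS libraries nearest to another time, 2 labelled 30 min were nearest to 1 h, 5 of run 2 labelled 1 h were nearest to 2 h, and of the other libraries of run 2 labelled 1 h 5 were nearest to 1 h and 1 to 30 min.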
